A study of Mus musculus with 15 samples.

Results

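The genes of the ubiquitin-like conjugation reactions of autophagy were followed by RNA-seq, with and without a knockout of Atg7. The protocol is meant to turn mouse embryonic stem cells (ESCs) into epiblast-like cells (EpiLCs). The genes were chosen by name and by their known biochemical roles. They are Atg7, Atg3, Atg5, Atg10, Atg12, Atg16l1, Atg4a, Atg4b, Atg4c and Atg4d, 10 of 24982 gene symbols counted in every library. All 10 had enough reads to be tested, with between 75 and 5111 counts per library. The 15 libraries, all labelled as the E14TG2 line, fell into 5 groups of 3. They were ESCs at day 0 labelled as control genotype (ESC), Atg7 knockout and control cells at day 2 (d2-Atg7 KO and d2-Control), and Atg7 knockout and control cells at day 4 (d4-Atg7 KO and d4-Control). According to the protocols, inactivated mouse fibroblasts served as feeders for the ESCs, in medium with LIF and the kinase inhibitors PD0325901 and CHIR99021. For the transition, cells were seeded on fibronectin in N2B27 medium with activin A, bFGF and serum replacement. KO libraries of day 2 and day 4 were analysed here, and none of day 0. The exons targeted, and whether the KO cells were 1 clone, were not stated by the labels. Nor do the labels tell whether replicates were grown separately, so p-values cover the scatter among these libraries alone, and part of it may be technical.

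Autophagy encloses cytoplasm in a new membrane and delivers it to the lysosome, and the membrane grows with the help of reactions that resemble ubiquitin conjugation. ATG7 is the E1-like enzyme, which activates the ubiquitin-like protein ATG12 and the ATG8 family, in mammals the LC3 and GABARAP proteins. ATG10 is the E2-like enzyme that passes ATG12 to ATG5, and ATG3 is the E2-like enzyme that passes ATG8 proteins to the lipid phosphatidylethanolamine. The ATG12-ATG5 conjugate binds ATG16L1 and acts as the E3-like complex for the lipid reaction. The ATG4 proteases cut new ATG8 proteins so that they can be conjugated, and also release them from lipid. Embryonic stem cells and their differentiating descendants use this pathway for protein and mitochondrial turnover.

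Levels below are CPM, counts divided by the TMM-scaled library size and set to a common total. Changes are log2 fold changes ± standard error from 1 edgeR quasi-likelihood model of all 15 libraries, and a gene is said to rise or fall only where the Benjamini-Hochberg adjusted p over all 15696 tested genes was under 0.05. Total counts lay between 14059237 and 23371546 per library, and the spread of the conjugation genes within a group had a median coefficient of variation of 5.33%. ESC replicate 3 stood apart, with a chi-square per degree of freedom of 31.8 and 24.2 against the other ESC libraries, where the other pairs within a group had 3.2 to 7.005. All 6 embryonic stem cell markers had reads in every group. Of the 6 EpiLC markers Fgf5 was near 0 at day 2, at 0 to 0.0832 CPM in d2-Atg7 KO and 0 to 0.0558 CPM in d2-Control, and at 0.198 to 0.537 CPM in ESC. At day 4 Fgf5 was still low, at 1.24 to 2.00 CPM in d4-Atg7 KO and 0.353 to 0.966 CPM in d4-Control. Markers of fibroblasts, the feeder cells, differed between groups. Their summed level over 8 genes was 202 to 1627 CPM in ESC, 407 to 744 CPM in d2-Atg7 KO against 218 to 251 CPM in d2-Control, and 95.2 to 132 CPM in d4-Atg7 KO against 61.5 to 67.6 CPM in d4-Control, with none of the 8 at 0. The 6 extraembryonic endoderm markers summed to 77.1 to 134 CPM in ESC, 222 to 256 CPM in d2-Atg7 KO against 182 to 199 CPM in d2-Control, and 504 to 574 CPM in d4-Atg7 KO against 344 to 487 CPM in d4-Control. The 6 trophoblast markers summed to 171 to 260.0 CPM in ESC, 119 to 124 CPM in d2-Atg7 KO against 167 to 177 CPM in d2-Control, and 284.5 to 367 CPM in d4-Atg7 KO against 487 to 642 CPM in d4-Control. In ESC that sum was mostly Tfap2c, with a mean of 195 CPM there and 34.3 CPM in d2-Control. Krt8, Krt18 and Hand1 averaged 6.12, 5.69 and 0.088 CPM in ESC, against 64.5, 67.1 and 4.525 CPM in d2-Control. Neither the endoderm nor the trophoblast list had a gene at 0 in a whole group, and the part of these markers in the results below was not tested. Hprt, a purine salvage enzyme, was at 183 to 203 CPM in ESC and at 1.59 to 2.94 CPM in the libraries of the other groups, so differences of the ESC group by time and by cell stock cannot be told apart.

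The central comparison asks how loss of Atg7 goes with the expression of the machinery around it. At day 2, 4 of the 10 genes rose in KO cells (Atg10, Atg12, Atg4b and Atg4c), 3 fell (Atg7, Atg3 and Atg16l1) and 3 did not pass the test. Over all tested genes, 20.4% rose and 21.4% fell at day 2. At day 4, 2 rose (Atg4c and Atg4d), 4 fell (Atg7, Atg5, Atg12 and Atg4a) and 4 did not pass, where 19.5% of all genes rose and 18.1% fell. The median log2 change of the 10 genes was 0.05 at day 2 and -0.13 at day 4, beside -0.01 over all genes at both days. KO and control libraries did not overlap for 7 of the 10 genes at day 2 (61.3% of all genes) and for 6 of the 10 at day 4 (54.9% of all genes). In these bulk libraries, fewer cells with a transcript and less of it per cell cannot be told apart. Just 3 genes passed at both days, Atg7 and Atg4c in the same direction and Atg12 in opposite directions.

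**Figure D1:**
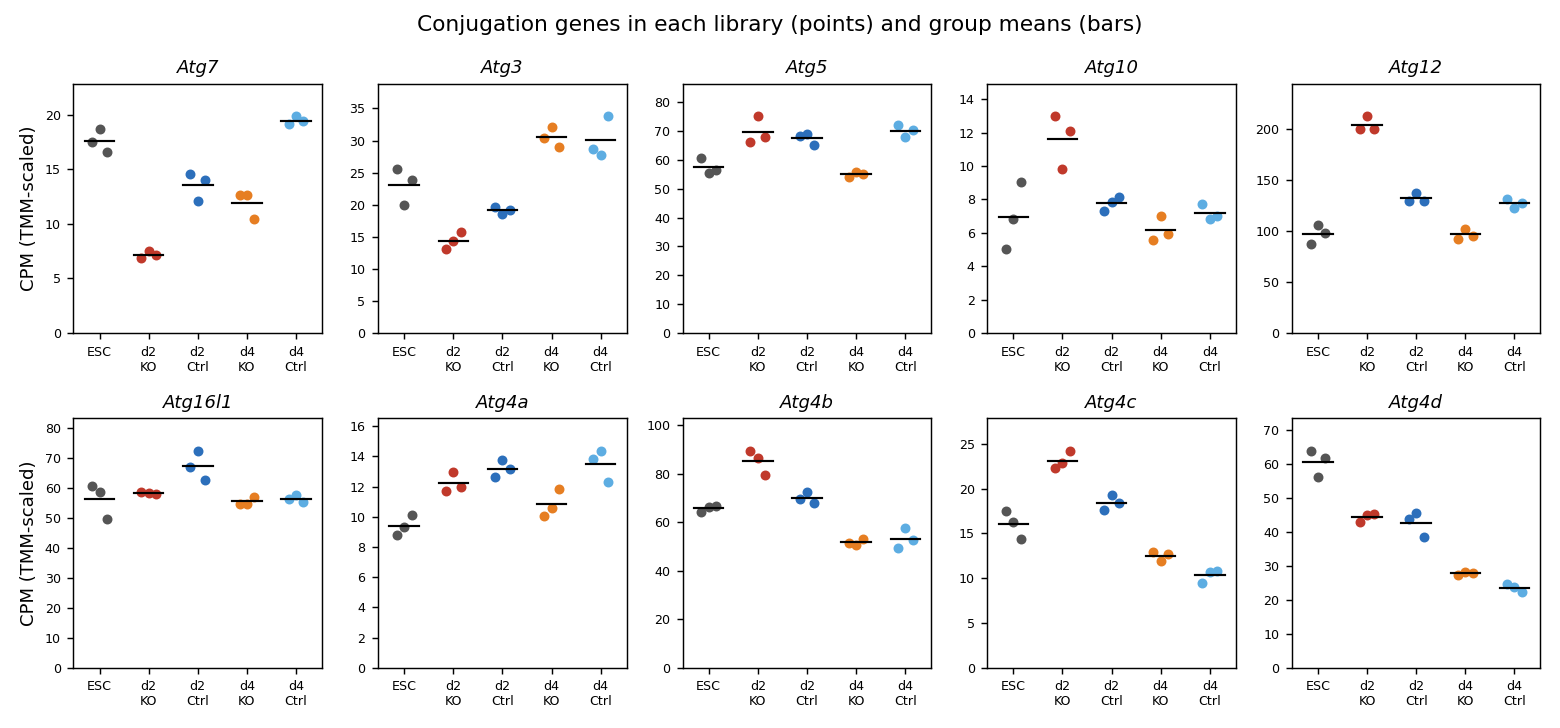
Level of each conjugation gene (y axis, CPM after TMM scaling, from 0) in the 3 libraries of each group (x axis, d2 and d4 for day 2 and day 4, Ctrl for control). Points are libraries and bars are group means; the Atg7 points of KO lie below those of control at both days, at 6.84 to 7.53 against 12.1 to 14.6 CPM at day 2 and 10.4 to 12.7 against 19.1 to 19.9 CPM at day 4.

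Atg7, the E1-like enzyme and the targeted gene, lies on chromosome 6 at 114643097 to 114860614 on the plus strand (GENCODE M21, GRCm38). It stood at 6.84, 7.53 and 7.11 CPM in d2-Atg7 KO, against 14.6, 12.1 and 14 CPM in d2-Control. At day 4 it stood at 12.6, 12.7 and 10.4 CPM in d4-Atg7 KO, against 19.1, 19.9 and 19.4 CPM in d4-Control. Every KO library was thus below every control library of its day, but none was near 0. The level in KO was 52.9% of control at day 2, a log2 change of -0.92 ± 0.11 (edgeR adjusted p = 8.34e-06), and 61.3% of control at day 4, a log2 change of -0.71 ± 0.11 (edgeR adjusted p = 8.39e-05). These counts cover whole genes, exons outside any deleted part included, so the remaining reads do not measure functional enzyme. The KO effect did not differ past the test between the days, with a difference of 0.21 ± 0.15 and a 95% interval from -0.11 to 0.53 (edgeR adjusted p = 0.296). Tested genes of the same chromosome had medians of 0.09 at day 2 and -0.05 at day 4.

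Atg3, which encodes the E2-like enzyme of the lipid reaction, lies on chromosome 16 at 45158785 to 45188538 on the plus strand. Its libraries were at 13.1, 14.3 and 15.8 CPM in d2-Atg7 KO, against 19.7, 18.6 and 19.2 CPM in d2-Control. All 3 KO libraries were lower, and Atg3 fell by 0.41 ± 0.11 on the log2 scale (edgeR adjusted p = 0.00557). At day 4 the groups overlapped, with 30.4, 32.1 and 29.0 CPM in d4-Atg7 KO against 28.8, 27.8 and 33.8 CPM in d4-Control. The day 4 difference was 0.02 ± 0.10, with a 95% interval from -0.20 to 0.24 (edgeR adjusted p = 0.906).

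Atg10, which encodes the E2-like enzyme of the ATG12 reaction, lies on chromosome 13 at 90935356 to 91223968 on the minus strand and had the lowest CPM of the 10 in every group but d2-Atg7 KO. It was at 13.0, 9.82 and 12.1 CPM in d2-Atg7 KO, against 7.31, 7.84 and 8.12 CPM in d2-Control. The E2-like enzymes therefore moved in opposite directions at day 2, as Atg10 rose by 0.58 ± 0.17 (edgeR adjusted p = 0.0122). Without d2-Atg7 KO replicate 1 the Atg10 change was 0.49 (edgeR adjusted p = 0.0601). At day 4 Atg10 was at 5.59, 6.97 and 5.94 CPM in d4-Atg7 KO, against 7.70, 6.83 and 7.01 CPM in d4-Control, and the groups overlapped. That difference of -0.22 ± 0.18 did not pass the test (edgeR adjusted p = 0.374).

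The sequences at the starts of these genes are shown for Atg7 and Atg3, which both fell in KO at day 2, and for Atg5 and Atg10, which did not. Each is a RefSeq window (GRCm38.p6) of 300 bases, from 250 before an annotated transcript start to 50 after it, printed 5′ to 3′ on the gene's strand. Capitals mark the E-box CACGTG, the core of the motif that MYC-family and TFEB-family factors are known to bind; it reads the same on both strands.
Atg7 (chr6:114670846-114671145, plus strand): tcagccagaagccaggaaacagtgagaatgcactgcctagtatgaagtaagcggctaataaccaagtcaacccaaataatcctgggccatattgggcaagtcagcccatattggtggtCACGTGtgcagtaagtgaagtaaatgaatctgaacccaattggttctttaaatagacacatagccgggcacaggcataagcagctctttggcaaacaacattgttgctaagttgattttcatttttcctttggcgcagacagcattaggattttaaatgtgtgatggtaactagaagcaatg
Atg3 (chr16:45158579-45158878, plus strand): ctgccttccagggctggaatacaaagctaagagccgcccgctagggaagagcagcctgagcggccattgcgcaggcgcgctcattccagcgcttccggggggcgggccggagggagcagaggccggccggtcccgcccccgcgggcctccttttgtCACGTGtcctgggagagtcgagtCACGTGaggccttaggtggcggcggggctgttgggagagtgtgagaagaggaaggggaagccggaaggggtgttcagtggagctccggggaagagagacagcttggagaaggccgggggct
Atg5 (chr10:44268089-44268388, plus strand): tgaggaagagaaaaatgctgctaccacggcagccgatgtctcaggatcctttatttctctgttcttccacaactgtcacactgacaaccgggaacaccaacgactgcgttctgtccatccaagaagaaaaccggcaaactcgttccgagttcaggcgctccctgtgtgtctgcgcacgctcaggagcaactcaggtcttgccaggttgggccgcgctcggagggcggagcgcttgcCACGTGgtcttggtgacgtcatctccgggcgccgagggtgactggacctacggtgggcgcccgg
Atg10 (chr13:91223938-91224237, minus strand): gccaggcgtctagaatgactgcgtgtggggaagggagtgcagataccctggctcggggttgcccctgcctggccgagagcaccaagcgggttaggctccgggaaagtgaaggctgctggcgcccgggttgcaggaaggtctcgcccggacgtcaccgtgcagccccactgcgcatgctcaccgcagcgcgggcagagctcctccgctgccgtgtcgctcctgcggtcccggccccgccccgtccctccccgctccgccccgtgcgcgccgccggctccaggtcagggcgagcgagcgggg
The Atg7 window belongs to a transcript start 27999 bases downstream of the start of the GENCODE gene. The E-box occurred once in the Atg7 and Atg5 windows, 2 times in the Atg3 window and not in the Atg10 window. Of the 8 conjugation genes with a window in the table, 3 held it, and of all 27025 genes with a window 8.09% did. The Atg5 window also held the cAMP response element TGACGTCA, which 2.03% of all genes held, while the ATF4-type element TGATGNAAN, held by 4.5% of all genes, was not in the windows of the 8. Both strands were searched, the motifs do not overlap one another in these windows, and they were chosen after results of these data were known. The letters say nothing about binding in these cells.

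Atg12, Atg5 and Atg16l1 encode the parts of the E3-like complex. Atg12, the ubiquitin-like protein itself, lies on chromosome 18 at 46730144 to 46741580 on the minus strand. It was at 200.2, 213 and 200.2 CPM in d2-Atg7 KO, against 130, 137 and 129 CPM in d2-Control, and at 92.2, 102 and 95.6 CPM in d4-Atg7 KO, against 132, 123 and 127 CPM in d4-Control. The KO libraries were all above control at day 2 and all below it at day 4. Atg12 rose by 0.63 ± 0.06 at day 2 (edgeR adjusted p = 2.17e-06) and fell by 0.40 ± 0.07 at day 4 (edgeR adjusted p = 0.000191). The 401 tested genes of chromosome 18 had a median log2 change of 0.56 in KO at day 2 and of 0.01 at day 4. The 10 tested genes nearest to Atg12, 5 on each side, had medians of 0.68 at day 2 and -0.03 at day 4. The part of the chromosome in the Atg12 values was not tested.

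Atg5, the acceptor of ATG12, lies on chromosome 10 at 44268358 to 44364291 on the plus strand. At day 2 it was at 66.0, 75.1 and 67.8 CPM in d2-Atg7 KO, against 68.4, 69.0 and 65.3 CPM in d2-Control, and the groups overlapped (0.04 ± 0.06, 95% interval from -0.08 to 0.17, edgeR adjusted p = 0.584). At day 4 it was at 54.0, 55.9 and 55.1 CPM in d4-Atg7 KO, against 72.2, 67.8 and 70.2 CPM in d4-Control. All 3 KO libraries were lower there, and Atg5 fell by 0.35 ± 0.06 (edgeR adjusted p = 0.000347), to 78.5% of control.

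Atg16l1, whose protein places the complex on membranes, lies on chromosome 1 at 87755870 to 87792428 on the plus strand. It was at 58.6, 58.1 and 57.8 CPM in d2-Atg7 KO, against 67.0, 72.2 and 62.7 CPM in d2-Control. The groups did not overlap, and it fell by 0.21 ± 0.07 (edgeR adjusted p = 0.0268). That call was lost when any 1 library other than d2-Control replicate 3 was left out, with log2 changes between -0.22 and -0.16 and edgeR adjusted p between 0.0596 and 0.131. At day 4 the groups overlapped, with 54.7, 54.6 and 57.0 CPM in d4-Atg7 KO against 56.2, 57.7 and 55.1 CPM in d4-Control (-0.02 ± 0.07, edgeR adjusted p = 0.826).

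The 4 ATG4 proteases did not move as one. Atg4b, in mammals the broadly acting member that processes LC3 and GABARAP proteins, lies on chromosome 1 at 93751500 to 93790610 on the plus strand. It was at 89.5, 86.4 and 79.5 CPM in d2-Atg7 KO, against 69.5, 72.7 and 67.8 CPM in d2-Control, all KO libraries being higher. It rose by 0.28 ± 0.06 at day 2 (edgeR adjusted p = 0.00215). At day 4 it was at 51.3, 50.8 and 53.3 CPM in d4-Atg7 KO, against 49.4, 57.6 and 52.5 CPM in d4-Control, with overlap (-0.04 ± 0.07, edgeR adjusted p = 0.687).

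Atg4c, a less active family member, lies on chromosome 4 at 99193934 to 99259787 on the plus strand. It was at 22.3, 22.8 and 24.2 CPM in d2-Atg7 KO, against 17.6, 19.3 and 18.4 CPM in d2-Control, and at 12.9, 11.9 and 12.7 CPM in d4-Atg7 KO, against 9.44, 10.7 and 10.8 CPM in d4-Control. The KO libraries were above control at both days. Atg4c rose by 0.33 ± 0.09 at day 2 (edgeR adjusted p = 0.0097), and at day 4 by 0.28 ± 0.10 (edgeR adjusted p = 0.0403). The day 4 call was lost when any 1 of the 6 libraries of that day was left out, with log2 changes between 0.22 and 0.32 and edgeR adjusted p between 0.0511 and 0.15. It was also lost with DESeq2 at 0.27 (DESeq2 adjusted p = 0.063).

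Atg4d, a family member whose activity in human cells is raised by caspase cleavage, lies on chromosome 9 at 21265293 to 21277772 on the plus strand. It was at 43.0, 44.9 and 45.3 CPM in d2-Atg7 KO, against 43.8, 45.6 and 38.5 CPM in d2-Control, with overlap (0.06 ± 0.07, edgeR adjusted p = 0.542). At day 4 it was at 27.3, 28.3 and 27.9 CPM in d4-Atg7 KO, against 24.7, 23.7 and 22.2 CPM in d4-Control. All 3 KO libraries were higher at day 4, and Atg4d rose by 0.24 ± 0.08 (edgeR adjusted p = 0.0242). The call was lost without d4-Control replicate 2 (0.25, edgeR adjusted p = 0.05 after rounding), d4-Control replicate 3 (0.20, 0.0965), d4-Atg7 KO replicate 2 (0.23, 0.0698) or d4-Atg7 KO replicate 3 (0.24, 0.0553). Exons of Atg4d share 1405 bases, 19.3% of their length, with Kri1 on the opposite strand, and whether reads were counted by strand is not known.

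Atg4a, which prefers GABARAP-type substrates, lies on the X chromosome at 140956907 to 141164270 on the plus strand. It was at 11.7, 12.9 and 12.0 CPM in d2-Atg7 KO, against 12.6, 13.8 and 13.2 CPM in d2-Control, with overlap (-0.11 ± 0.10, edgeR adjusted p = 0.42). At day 4 it was at 10.1, 10.6 and 11.9 CPM in d4-Atg7 KO, against 13.8, 14.4 and 12.3 CPM in d4-Control. The KO libraries were lower, and it fell by 0.32 ± 0.11 (edgeR adjusted p = 0.03). Its changes between -0.30 and -0.26 did not pass without d4-Control replicate 1 or 2 or d4-Atg7 KO replicate 1 or 2, with edgeR adjusted p between 0.0832 and 0.116. How reads shared with the annotated copy Atg4a-ps were counted is not known.

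**Figure D2:**
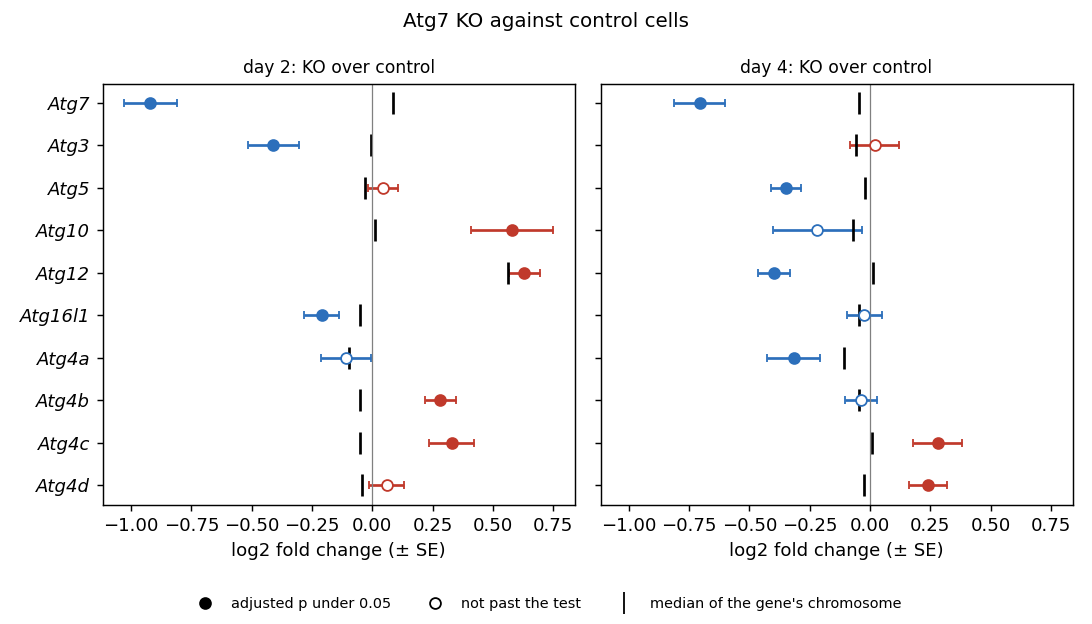
Log2 fold change of KO over control (x axis) of each conjugation gene at day 2 (left panel) and day 4 (right panel), with standard errors; filled points passed the edgeR test, red is higher and blue lower in KO. Black ticks are the medians of the tested genes on each gene's chromosome; the Atg12 point at day 2 (0.63) lies close to its tick (0.56), and the Atg7 points lie far from theirs.

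The summed level of the feeder markers was higher in KO at both days, and 5 of the 8 rose at day 2 and 1 of the 8 (Col1a1) at day 4. Over all tested genes 20.4% rose and 21.4% fell at day 2, and 19.5% rose and 18.1% fell at day 4. By sign alone, 8 of the 8 were higher in KO at day 2 but 5 of the 8 at day 4. Thy1 (-0.56), Pdgfrb (-0.23) and Postn (-0.17) were lower at day 4, none past the test. A collagen score (log2 CPM averaged over 3 collagen genes) was 6.53 to 7.50 in d2-Atg7 KO against 5.45 to 5.72 in d2-Control. At day 4 it was 4.35 to 4.79 in d4-Atg7 KO against 3.03 to 3.22 in d4-Control. The score thus did not overlap between genotypes at either day, so its part and that of the KO cannot be told apart. Within a group it ranged most in ESC, at 8.93, 7.99 and 5.88 in replicates 1, 2 and 3. Fits without ESC replicate 3 thus leave out the ESC library with the lowest score. When this score entered the model as a covariate, Atg7 was at -0.96 at day 2 (edgeR adjusted p = 6.83e-06). The same covariate took Atg4c at day 2 to 0.21 (edgeR adjusted p = 0.114), and at day 4 it took Atg4a to -0.27 (0.128), Atg4c to 0.16 (0.302) and Atg4d to 0.23 (0.0664), so that none of these passed. At day 2 it moved Atg10 to 0.95 (edgeR adjusted p = 2.33e-05) and Atg16l1 to -0.33 (edgeR adjusted p = 0.000932). Atg4a at day 4 also lost its call with no filter on low counts (-0.31, edgeR adjusted p = 0.0686).

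The KO effect differed between day 4 and day 2 for 5 of the 10 genes, tested as an interaction in the same model. Atg3 had the higher effect at day 4, by 0.43 ± 0.15 (edgeR adjusted p = 0.0319). Atg5, Atg10, Atg12 and Atg4b had the lower effect at day 4. Their differences were -0.39 ± 0.09 for Atg5, -0.80 ± 0.25 for Atg10, -1.03 ± 0.09 for Atg12 and -0.32 ± 0.09 for Atg4b (edgeR adjusted p = 0.00219, 0.02, 1.27e-06 and 0.0121 in that order). Over all genes, 18.6% had a higher and 17.6% a lower effect at day 4. Chromosome 18 genes had a median difference of -0.59, and the 10 neighbours of Atg12 one of -0.82.

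The differences for Atg16l1 (0.19 ± 0.10), Atg4a (-0.21 ± 0.15), Atg4c (-0.05 ± 0.14) and Atg4d (0.18 ± 0.11) did not pass the test, with edgeR adjusted p between 0.17 and 0.813. For Atg4c the 95% interval ran from -0.34 to 0.24. The Atg3 difference lost its call in 8 of the 12 fits that left out 1 library, those without replicate 1 or 3 of d2-Control, replicate 1 or 2 of d2-Atg7 KO, of d4-Control or of d4-Atg7 KO, at 0.37 to 0.43 (edgeR adjusted p 0.0558 to 0.0838). The Atg10 difference lost it without d2-Atg7 KO replicate 1 (-0.71, edgeR adjusted p = 0.0555) and without d4-Atg7 KO replicate 1 (-0.73, edgeR adjusted p = 0.0546).

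**Figure D3:**
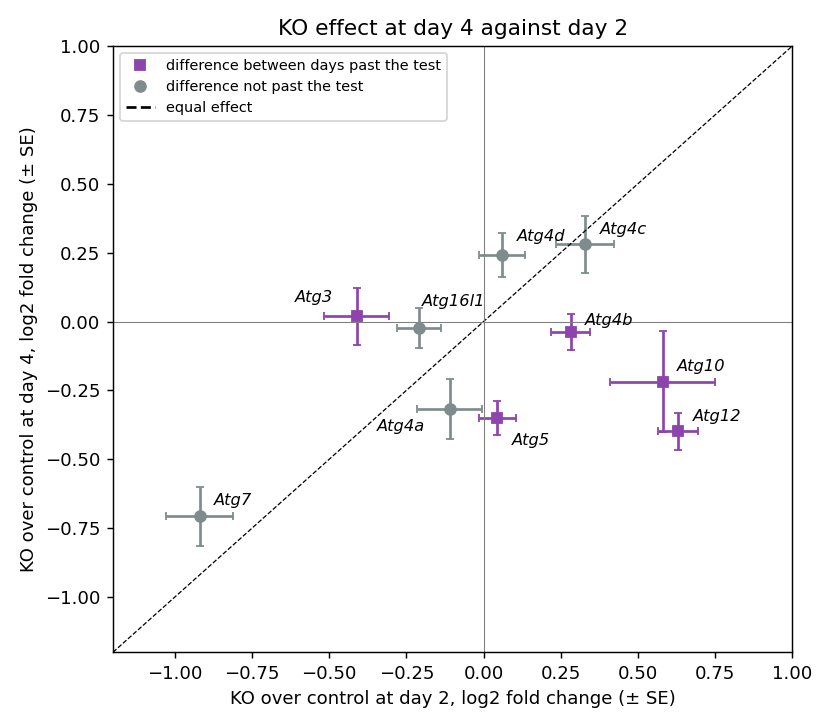
KO effect of each conjugation gene at day 4 (y axis) against day 2 (x axis), both as log2 fold change of KO over control with standard errors. Purple squares are the 5 genes whose effect differed between the days past the edgeR test, and the dashed line marks equal effects; Atg12 lies farthest from it, at 0.63 on the x axis and -0.40 on the y axis.

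The time course compares groups of different days. Hprt set ESC apart from all other groups, so in comparisons with ESC time and cell stock cannot be told apart. Markers of several cell types differed along it. Beside their counts, 35.6% of all tested genes rose and 34.9% fell in d2-Control against ESC. The shares were 33.9% and 34.6% in d4-Control against d2-Control, and 36.2% and 35.6% in d4-Control against ESC. In d2-Control against ESC, 2 of 6 EpiLC markers rose and 2 fell, 3 of 6 extraembryonic endoderm markers rose, 3 of 4 tested trophoblast markers rose and 1 fell, and 5 of 8 feeder markers fell and 1 rose. In d4-Control against ESC, 5 of 6 EpiLC, 6 of 6 endoderm and 3 of 4 trophoblast markers rose, with list medians of 1.40, 3.50 and 5.52 on the log2 scale, 1 trophoblast marker fell, and 6 of 8 feeder markers fell and 1 rose. In d4-Control against d2-Control all 6 EpiLC markers and 5 of 6 endoderm markers rose, and 2 of 4 trophoblast markers rose and 1 fell. Of the 6 embryonic stem cell markers 5 fell and 1 rose (Zfp42, by 0.88) in d2-Control against ESC. Against ESC, d4-Control also had 5 lower and 1 higher, while 3 rose and 3 fell in d4-Control against d2-Control. The EpiLC markers that fell in d2-Control against ESC were Fgf5 (-3.30) and Otx2 (-0.49). The part of all these markers in the changes of the conjugation genes was not tested.

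In d2-Control against ESC, 4 genes rose (Atg5, Atg12, Atg16l1 and Atg4a) and 3 fell (Atg7, Atg3 and Atg4d), where 35.6% of all genes rose and 34.9% fell. Atg7 was at 14.6, 12.1 and 14 CPM in d2-Control, against 17.5, 18.7 and 16.6 CPM in ESC, without overlap, and fell by 0.38 ± 0.10 (edgeR adjusted p = 0.00433). Atg4d, at 43.8, 45.6 and 38.5 CPM in d2-Control against 63.8, 56.2 and 61.7 CPM in ESC, fell by 0.51 ± 0.07 (edgeR adjusted p = 1.2e-05). Atg12, at 130, 137 and 129 CPM in d2-Control against 87.1, 106 and 98.0 CPM in ESC, rose by 0.45 ± 0.07 (edgeR adjusted p = 1.42e-05), where the median of chromosome 18 was -0.14. Atg4a rose by 0.49 ± 0.11 (edgeR adjusted p = 0.000813), beside a median of 0.38 over the X chromosome.

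Of the other genes of that comparison, Atg5 rose by 0.23 ± 0.06 (edgeR adjusted p = 0.00323) and Atg16l1 by 0.26 ± 0.07 (edgeR adjusted p = 0.00446). Atg3 fell by 0.27 ± 0.11 (edgeR adjusted p = 0.0328), a call that held in 1 of 6 fits that left out a library, the one without ESC replicate 2, and was otherwise at -0.28 to -0.19 (edgeR adjusted p 0.0545 to 0.145). Atg10 (0.16 ± 0.18), Atg4b (0.09 ± 0.06) and Atg4c (0.20 ± 0.10) did not pass, but Atg10 did without ESC replicate 3 (0.39, edgeR adjusted p = 0.0405) and Atg4c without ESC replicate 1 (0.26, edgeR adjusted p = 0.0363). Atg4c also passed with upper quartile scaling (0.24, edgeR adjusted p = 0.0334), the stricter filter (0.24, edgeR adjusted p = 0.0279) and the collagen score as covariate (0.37, edgeR adjusted p = 0.0229). Atg3 lost its call with upper quartile scaling, no filter, the stricter filter and the compared groups alone, at -0.26 to -0.22 (edgeR adjusted p 0.0661 to 0.0871). The 3 ESC libraries of Atg10, at 5.04, 6.83 and 9.04 CPM, had collagen scores of 8.93, 7.99 and 5.88. With the collagen score as a covariate Atg7 was at -0.32 (edgeR adjusted p = 0.0753) and Atg3 at -0.24 (edgeR adjusted p = 0.16), while Atg16l1 was at 0.44 (edgeR adjusted p = 0.000203). Without ESC replicate 3, Atg7 was at -0.42, Atg5 at 0.22, Atg12 at 0.46, Atg16l1 at 0.18, Atg4a at 0.54 and Atg4d at -0.49, all still past the test, and Atg3 was at -0.24 (edgeR adjusted p = 0.0562).

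In d4-Control against d2-Control, 2 genes rose (Atg7 and Atg3) and 4 fell (Atg16l1, Atg4b, Atg4c and Atg4d), where 33.9% of all genes rose and 34.6% fell. Atg7 rose by 0.52 ± 0.10 (edgeR adjusted p = 0.000308), beside a chromosome 6 median of 0.39, and Atg3 by 0.65 ± 0.10 (edgeR adjusted p = 3.55e-05). Among the proteases Atg4c fell by 0.84 ± 0.10 (edgeR adjusted p = 1.29e-06), Atg4d by 0.86 ± 0.08 (edgeR adjusted p = 5.6e-08) and Atg4b by 0.40 ± 0.06 (edgeR adjusted p = 4.52e-05). Atg4d thus fell here as it did in d2-Control against ESC, to 24.7, 23.7 and 22.2 CPM in d4-Control. Atg16l1 fell by 0.26 ± 0.07 (edgeR adjusted p = 0.00494), and with the collagen score as a covariate it was at -0.03 (edgeR adjusted p = 0.798). Atg5 (0.05), Atg10 (-0.11), Atg12 (-0.05) and Atg4a (0.03) did not pass, where the median of chromosome 18 was 0.35. With the collagen score Atg10 passed, at -0.81 (edgeR adjusted p = 0.0021).

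In d4-Control against ESC, 4 genes rose (Atg3, Atg5, Atg12 and Atg4a) and 3 fell (Atg4b, Atg4c and Atg4d), where 36.2% of all genes rose and 35.6% fell. Atg4d had the largest change of the 10, -1.36 ± 0.08, down to 38.9% of the ESC level (edgeR adjusted p = 1.46e-10). Atg4c fell by 0.64 ± 0.10 (edgeR adjusted p = 2.67e-05) and Atg4b by 0.31 ± 0.07 (edgeR adjusted p = 0.000502), so 3 of the 4 proteases were lower. The fourth, Atg4a, rose by 0.52 ± 0.11 (edgeR adjusted p = 0.00049), beside an X chromosome median of 0.46. Atg12 rose by 0.40 ± 0.07 (edgeR adjusted p = 5e-05), beside a chromosome 18 median of 0.32, Atg3 by 0.38 ± 0.10 (edgeR adjusted p = 0.00359) and Atg5 by 0.28 ± 0.06 (edgeR adjusted p = 0.000643). Atg7, at 0.15 ± 0.10 (edgeR adjusted p = 0.22), did not pass except under the stricter filter (0.25, edgeR adjusted p = 0.0394), and the median of chromosome 6 was 0.44. Atg10 (0.04) and Atg16l1 (close to 0) did not pass either. With the collagen score as a covariate, Atg4d (-1.31) and Atg5 (0.49) still passed, while Atg3, Atg12, Atg4a, Atg4b and Atg4c did not (edgeR adjusted p 0.0734 to 0.384). It also took Atg10 to -1.17 (edgeR adjusted p = 0.00493) and Atg16l1 to 0.41 (edgeR adjusted p = 0.0376), and the scores were 3.03 to 3.22 in d4-Control and 5.88 to 8.93 in ESC. Under the stricter filter Atg4b was at -0.20 (edgeR adjusted p = 0.00764). Without ESC replicate 3 the same 7 genes passed, with Atg3 at 0.41, Atg5 at 0.27, Atg12 at 0.41, Atg4a at 0.57, Atg4b at -0.30, Atg4c at -0.71 and Atg4d at -1.35.

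In KO cells, d4-Atg7 KO against d2-Atg7 KO, 2 genes rose and 6 fell, where 31.2% of all genes rose and 32% fell. Atg7 itself rose by 0.73 ± 0.11 (edgeR adjusted p = 2.44e-05). Atg3 rose by 1.08 ± 0.11, to 212% of its day 2 level (edgeR adjusted p = 2.17e-07). Atg12 fell by 1.08 ± 0.07 (edgeR adjusted p = 1.38e-09), beside a chromosome 18 median of -0.17, and Atg10 fell by 0.91 ± 0.18 (edgeR adjusted p = 0.000275), and was at -1.58 (edgeR adjusted p = 1.08e-06) with the collagen score as covariate. Atg4c (-0.89), Atg4b (-0.72), Atg4d (-0.67) and Atg5 (-0.34) also fell. Atg4a and Atg16l1 did not pass (-0.17 and -0.07). These changes use the same libraries as the KO comparisons at each day, so they are no separate evidence for them.

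**Figure D4:**
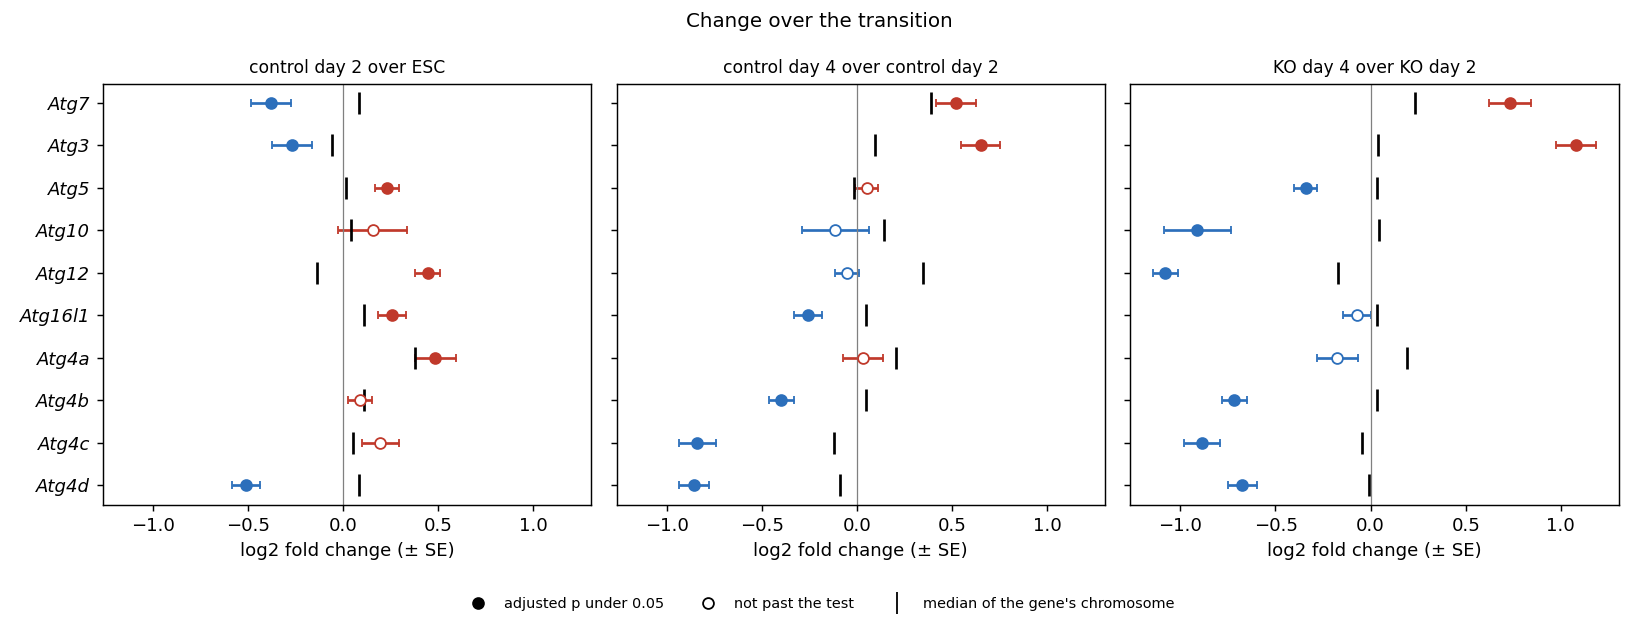
Log2 fold change (x axis, with standard error) of each conjugation gene between groups of different days. The panels are control day 2 over ESC, control day 4 over control day 2, and KO day 4 over KO day 2. Filled points passed the edgeR test and black ticks are chromosome medians; Atg4c and Atg4d fell between days 2 and 4 in both genotypes, and Atg12 fell there in KO (-1.08) but not past the test in control (-0.05).

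Divided by exon length, levels in CPM per kb put Atg5 first and Atg7 last in every group. Atg5 was at 24.5 ± 1.21 in ESC, 29.6 ± 2.05 in d2-Atg7 KO, 28.7 ± 0.849 in d2-Control, 23.4 ± 0.402 in d4-Atg7 KO and 29.8 ± 0.934 CPM per kb in d4-Control (SD, n = 3). Atg7 was at 2.53 ± 0.148 in ESC, 1.03 ± 0.0502 in d2-Atg7 KO, 1.95 ± 0.182 in d2-Control, 1.71 ± 0.184 in d4-Atg7 KO and 2.79 ± 0.0544 CPM per kb in d4-Control (SD, n = 3). The transcript of the E1-like enzyme was thus the lowest of the 10 per length in controls as well as in KO cells. Atg12 was second in every group, at 26.5 ± 0.933 in d2-Atg7 KO and between 12.5 and 17.1 CPM per kb in the others. In d4-Control the next gene above Atg7 was Atg4c, at 3.075 CPM per kb. Length is the union of GENCODE M21 exons, so a gene whose longest isoform is little used is understated. Atg7 had 12 coding transcripts in that annotation and the other genes 1 to 4, and how far this lowered its rank was not tested.

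The order of the groups differed from gene to gene. For Atg7 it was d4-Control, ESC, d2-Control, d4-Atg7 KO and d2-Atg7 KO from high to low, where only the libraries of d2-Control and d4-Atg7 KO overlapped. For Atg4c it was d2-Atg7 KO, d2-Control, ESC, d4-Atg7 KO and d4-Control, with no overlap between neighbours. Atg3 was highest at day 4, where KO and control overlapped, and lowest in d2-Atg7 KO. Atg10 was highest in d2-Atg7 KO, and its other 4 groups overlapped their neighbours. For Atg4a all neighbours in the order overlapped.

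**Figure D5:**
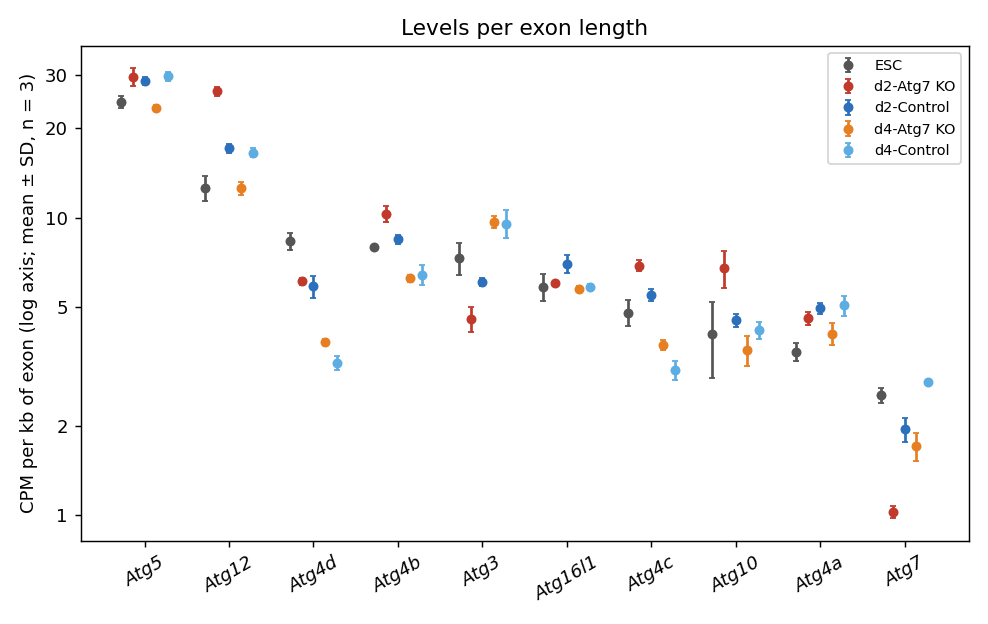
Level of each conjugation gene per exon length (y axis, CPM per kb of exon on a log axis, mean and SD of 3 libraries) in the 5 groups, with genes ordered along the x axis by their level in ESC. Atg5 lies highest at 23.4 to 29.8 CPM per kb and Atg7 lowest at 1.03 to 2.79 CPM per kb.

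The other autophagy genes were taken from lists chosen by function. Beside their counts, 20.4% of all tested genes rose and 21.4% fell in KO at day 2, and 19.5% rose and 18.1% fell at day 4. Of the 5 ATG8-family genes, whose proteins ATG7 and ATG3 conjugate to lipid, 2 rose and 2 fell in KO at day 2. Map1lc3a, an LC3 gene, fell to 30.8 ± 6.81 CPM in d2-Atg7 KO, against 61.2 ± 9.80 CPM in d2-Control (SD, n = 3), a log2 change of -0.99 ± 0.19 (edgeR adjusted p = 0.00079). Gabarapl2 fell by 0.26, while Gabarap rose by 0.23 and Map1lc3b by 0.22. At day 4, 1 rose (Gabarapl2, by 0.25) and 2 fell (Gabarapl1 by 0.50, Map1lc3b by 0.24). Map1lc3b and Gabarapl2 therefore passed at both days in opposite directions. Some of these calls rested on 1 library. At day 2 Map1lc3b (0.16 and 0.20) and Gabarap (0.19 and 0.17) did not pass without d2-Control replicate 3 or d2-Atg7 KO replicate 2, and at day 4 Map1lc3b (-0.19) did not pass without d4-Control replicate 3 nor Gabarapl2 (0.18) without d4-Control replicate 1. The list's median log2 change was 0.06 at day 2 and 0.07 at day 4.

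Of the 5 genes of the ULK kinase complex, which starts autophagosome formation, 2 rose at day 2 (Atg13 by 0.18 and Ulk1 by 0.16) and 2 fell at day 4 (Atg101 by 0.46 and Rb1cc1 by 0.30), with list medians of 0.16 and -0.09. The Ulk1 call was lost in 5 of the 6 fits without 1 library of day 2, all but that without d2-Atg7 KO replicate 1, at 0.14 to 0.17 (edgeR adjusted p 0.0647 to 0.123). In the class III PI3K complex, which makes the lipid signal on the growing membrane, 1 of 7 rose and 1 fell at day 2. Pik3c3, its catalytic subunit, rose by 0.60 ± 0.06 at day 2 (edgeR adjusted p = 2.52e-06), and it too lies on chromosome 18. Uvrag, a Beclin partner, fell by 0.53 ± 0.08 (edgeR adjusted p = 0.000142). At day 4, 2 rose (Ambra1 by 0.37 and Becn1 by 0.33) and Pik3c3 fell by 0.17, a call lost without d4-Control replicate 1 or 2 or d4-Atg7 KO replicate 1 or 3 (-0.17 to -0.14, edgeR adjusted p 0.089 to 0.153). The list medians were -0.03 at day 2 and 0.09 at day 4.

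Among 10 genes for membrane supply and lipid binding, 1 rose and 2 fell at day 2, and 4 rose and 3 fell at day 4, with medians of -0.02 and -0.04. Atg9b, a lipid scramblase, had the largest change, at 4.21 ± 0.837 CPM in d2-Atg7 KO against 11.2 ± 0.789 CPM in d2-Control (SD, n = 3), a fall of 1.40 ± 0.20 (edgeR adjusted p = 4.12e-05). The lipid transfer genes Atg2a and Atg2b each rose by 0.43 at day 4, and the scramblases Vmp1 and Tmem41b fell by 0.28 and 0.23. Of Tecpr1 and Atg16l2, whose proteins can bind the ATG12-ATG5 conjugate, Tecpr1 rose at day 4 to 20.4 ± 0.190 CPM in d4-Atg7 KO, against 13.2 ± 0.874 CPM in d4-Control (SD, n = 3; 0.63 ± 0.08, edgeR adjusted p = 1.54e-05). Neither passed at day 2, at -0.01 for Tecpr1 and -0.18 for Atg16l2.

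Genes whose levels ran most like Atg7 were ranked by Pearson's r of log2(CPM + 1) over the 15 libraries, among 11181 genes with a mean of at least 5 CPM. The 5 highest were Cxadr (0.96), Sfn (0.95), Ctnnd1 (0.94), St6galnac2 (0.94) and Suclg1 (0.93). Sfn, which encodes 14-3-3 sigma, averaged 8.04 CPM in d2-Atg7 KO against 25.6 CPM in d2-Control, and 29.0 CPM in d4-Atg7 KO against 61.8 CPM in d4-Control. The 5 lowest were Hspb6 (-0.97), Rbm22 (-0.97), Ccny (-0.95), Prrc1 (-0.94) and Zfp787 (-0.92), of which Rbm22, Ccny and Prrc1 lie on chromosome 18. Among the conjugation genes r with Atg7 was 0.68 for Atg3, between -0.71 and -0.64 for Atg4c, Atg12, Atg10 and Atg4b, and between -0.19 and -0.11 for the other 4. The libraries form 5 groups of 3, so these values mostly describe the 5 group means.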

How the data were processed

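RNA-seq counts of 15 libraries were used. The values are raw counts per gene symbol as the authors deposited them, in a table for each library. STAR, StringTie, featureCounts and DESeq2, with mm10 and GRCm38, are named per the submitters' processing notes, with versions, annotation and strandedness not given in the sources used here. Groups and replicate numbers came from the sample titles.

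The test was edgeR 4.0.16 under R 4.3.3. filterByExpr (minimum count 10, minimum total 15) kept 15696 genes of 24982. Libraries were scaled with TMM, and 1 quasi-likelihood model with 5 group means gave 7 contrasts, with Benjamini-Hochberg adjustment over all tested genes and a threshold of 0.05. The model shares 1 estimate of spread over all groups. Coordinates and exon lengths are from GENCODE M21 (GRCm38). Chromosomes and promoter windows are from RefSeq (GRCm38.p6), which placed 98.2% of the tested genes. The procedure was tested on simulated data.

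The 10 genes and the other lists were chosen with earlier results of these data known. Genes named from other lists are up to 2 risen and 2 fallen per list and day with the smallest p; the genes most like Atg7 are the 5 highest and 5 lowest correlations. Outside that rule, Hprt, Atg16l2, Tecpr1 at day 2, Urm1, Mocs3 and Senp2 at day 4 were chosen after their values were seen. So were the single markers Fgf5, Otx2, Zfp42, Col1a1, Thy1, Pdgfrb, Postn, Hand1, Krt8, Krt18 and Tfap2c. No pair of libraries in a group agreed within sampling noise (chi-square per degree of freedom 3.2 to 31.78, the 2 highest with ESC replicate 3). Each library counted as 1 sample, but these values cannot tell separate cultures from technical repeats. Depth limits low genes most: 75 counts was the lowest value of a conjugation gene. Alternatives were other scalings (RLE, upper quartile), the filter dropped or made stricter (10 CPM or more in 3 libraries), a Wald test in DESeq2 1.42.0, models with the compared groups alone, a replicate block, chromosome 18 left out, a collagen score as covariate, and each library left out in turn.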

Additional observations from a re-analysis of the deposited data

Results flagged for a closer look

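The KO effect on 5 of the 10 conjugation genes differed between day 4 and day 2 by the interaction test of the edgeR model. The differences in log2 fold change, day 4 minus day 2, were 0.43 for Atg3, -0.39 for Atg5, -0.80 for Atg10, -1.03 for Atg12 and -0.32 for Atg4b. Atg3 was lower in KO at day 2 alone, Atg5 at day 4 alone, and Atg10 and Atg4b were higher at day 2 alone by the test at each day. Atg12 passed at both days with opposite signs. The Atg3 difference lost its call in 8 of the 12 fits that left out 1 library, at 0.37 to 0.43, and the Atg10 difference in the fits without replicate 1 of d2-Atg7 KO (-0.71) or of d4-Atg7 KO (-0.73). The chromosome 18 median moved the same way as Atg12, by -0.59, and its part in the Atg12 difference was not tested. Over all genes 18.6% had a higher and 17.6% a lower effect at day 4, so such differences were common.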

How the results depend on the processing

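Of 1103 recomputed values of the conjugation genes, 1012 kept their direction and their side of the threshold, 60 lost a call, 8 gained one and 23 changed sign. The Atg7 calls in KO held in every alternative, between -0.99 and -0.87 at day 2 and between -0.77 and -0.62 at day 4. The number of conjugation genes that rose in KO at day 4, 2, became 1 with upper quartile scaling, no filter, the replicate block or DESeq2, 0 with the stricter filter or the collagen score, and 0 to 1 when a library was left out. The number with a higher KO effect at day 4, 1 (Atg3), became 0 with upper quartile scaling (0.38, edgeR adjusted p = 0.056) or the stricter filter (0.36, 0.0632), and 0 to 1 without a library. With the collagen score, 1 in place of 3 fell in d2-Control against ESC and 2 in place of 4 rose in d4-Control against ESC, where calls over all genes went down to 7223 against 11257.

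Sign changes were in values that had not passed. With the collagen score they were Atg5 in KO at day 2 (-0.018), Atg3 (-5.21e-05) and Atg10 (0.18) in KO at day 4, Atg10 in d2-Control (-0.36) and d4-Control (-1.17) against ESC, Atg4a in d4-Control against d2-Control (-0.050), and Atg16l1 in d4-Atg7 KO against d2-Atg7 KO (0.15); of these only Atg10 in d4-Control against ESC passed after the change (edgeR adjusted p = 0.00493). Atg3 in KO at day 4 was -0.021 with upper quartile scaling and -0.044 with the stricter filter, and Atg12 in d4-Control against d2-Control was 0.0054 with the stricter filter. Leaving out a library gave ranges through 0 for Atg5 (-0.013 to 0.081) and Atg4d (-0.010 to 0.11) in KO at day 2, Atg3 (-0.035 to 0.11) and Atg4b (-0.087 to 0.024) in KO at day 4, Atg10 (-0.034 to 0.39) in d2-Control against ESC, Atg4a (-0.014 to 0.095) in d4-Control against d2-Control, and Atg10 (-0.15 to 0.28) and Atg16l1 (-0.078 to 0.059) in d4-Control against ESC. The cause of these changes was not tested.

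Deviations from the group mean correlated between -0.109 and 0.0986 for libraries with the same replicate number in the KO comparisons. The same number was the best match for replicates 2 and 3 at day 2 and for none at day 4. In d2-Control against ESC it was the best match for each replicate, at 0.0547, 0.0320 and 0.0488. In the remaining comparisons it was so for replicate 2 alone or for none. With the replicate number as a block, Atg4c in KO at day 4 lost its call (0.28, edgeR adjusted p = 0.0575), and no other call of a conjugation gene changed. Without chromosome 18, Atg12 has no value.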

Other observations

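ATG7 belongs to the family of E1-like enzymes, and genes of the other ubiquitin-like systems were looked at beside it in KO against control. Of the 8 genes of the UFM1 system, which modifies ribosomes at the endoplasmic reticulum, 5 rose at day 2 and 3 did not pass, with a list median of 0.25 on the log2 scale beside -0.01 over all genes. Ufsp2, a UFM1 protease, rose by 0.40 ± 0.07 (edgeR adjusted p = 0.000436), and Cdk5rap3, a partner of the UFM1 ligase, by 0.32 ± 0.06 (edgeR adjusted p = 0.000502). At day 4, 3 of the 8 rose, among them Ufc1, the E2 enzyme, by 0.48 and Cdk5rap3 by 0.33, and Ufsp2 fell by 0.21, while the list median was -0.001. The Ufsp2 call at day 4 was lost when any 1 library of that day was left out, at -0.23 to -0.20 (edgeR adjusted p 0.0639 to 0.113). Over all genes 20.4% rose and 21.4% fell at day 2, and 19.5% rose and 18.1% fell at day 4. The same shares stand beside the counts of the SUMO, NEDD8 and marker lists that follow.

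Of the 12 SUMO genes 2 rose and 4 fell at day 2, and 5 rose and 2 fell at day 4. The SUMO proteases Senp7 (0.78) and Senp5 (0.76) rose at day 2, and Senp3 (0.49) and Senp6 (0.44) at day 4, while the protease gene Senp2 fell by 0.36 at day 2 and rose by 0.38 at day 4. Sumo2, which encodes a modifier, fell at day 4 by 0.31. Of the 6 NEDD8 genes 1 rose and 1 fell at day 2, and 1 rose and 4 fell at day 4, where Senp8, a NEDD8 protease, fell by 0.41, having risen by 0.50 in the day 2 comparison. Of the ubiquitin-activating enzymes Uba1 fell at day 2 by 0.21 and Uba6 at day 4 by 0.26, the call for Uba6 being lost without d4-Control replicate 1 (-0.17) or d4-Atg7 KO replicate 1 (-0.21). Urm1 (-0.24 at day 2, 0.16 at day 4) and its activating enzyme gene Mocs3 (0.40 and 0.42) did not pass at either day.

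Among the other marker lists, all 6 embryonic stem cell markers rose in KO at day 4, with a list median of 0.37, and 4 of 6 rose at day 2, with a median of 0.22. Of 4 tested trophoblast markers 3 fell at each day (Hand1, Krt8 and Krt18), while Tfap2c rose by 0.62 at day 2 and was at -0.25, not past the test, at day 4; the list medians were -0.94 and -0.87. Of the 6 extraembryonic endoderm markers 3 rose at day 2 and 1 at day 4. Of the 6 EpiLC markers 1 rose and 3 fell at day 2, and 2 rose and 2 fell at day 4.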
